A study of Mus musculus with 4 samples.

Results

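The genes described here are the 96 protein-coding mouse genes, of 21887 in the RefSeq gene table, that encode the pore-forming subunits of neuronal ion channels and the subunits of fast and modulatory transmitter receptors. They were chosen by symbol, as the NMDA (Grin, without Grina), AMPA (Gria), kainate (Grik), metabotropic glutamate (Grm) and GABA-A (Gabra, Gabrb, Gabrg) receptor genes, the voltage-gated potassium channel genes (Kcna to Kcnd and Kcnq), the inward rectifiers (Kcnj), the calcium channel pore subunits (Cacna1) and the sodium channel pore subunits (Scn). The symbols starting with Kcna also take in Kcnab1, Kcnab2 and Kcnab3, which encode beta subunits that bind potassium channels in the cytoplasm and form no pore.

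The study compared histone marks in peritoneal macrophages of C57BL/6 mice aged 8 weeks, elicited with thioglycollate broth, plated until adherent and then treated for 24 h with lipopolysaccharide (LPS, a bacterial cell wall component that activates macrophages) or with phosphate-buffered saline (PBS). Chromatin was immunoprecipitated with an antibody to trimethylated lysine 4 of histone H3 (H3K4me3) or to trimethylated lysine 9 (H3K9me3) and sequenced. Of the 4 libraries each stood alone in its group, without a replicate, and no test between treatments could be made. The labels do not say how many mice each library came from.

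Ion channels and transmitter receptors set the excitability of neurons. NMDA, AMPA and kainate receptors are cation channels opened by glutamate, GABA-A receptors are chloride channels opened by GABA, and sodium, calcium and potassium channels shape the action potential and transmitter release. H3K4me3 marks the promoters of active genes and of many CpG-rich promoters that are little transcribed, and H3K9me3 marks silent chromatin, in particular repeats. Macrophages are known to express some of these channels, among them the potassium channels encoded by Kcna3 and Kcnj2.

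After filtering there were 26748289 tags in the H3K4me3 LPS library, 29681491 in the H3K4me3 PBS library, 28586946 in the H3K9me3 LPS library and 27727997 in the H3K9me3 PBS library. Peaks held 14.0% and 17.8% of the H3K4me3 tags after LPS and PBS, but only 1.62% and 1.69% of the H3K9me3 tags. The fragment length estimated by the peak caller was 149 and 142 bases for H3K4me3. For H3K9me3 it was 71 and 66 bases, not far above the tag size of 50 bases. The median H3K9me3 peak was 258 and 245 bases long. How far the H3K9me3 peaks reflect the mark was not tested. Each library had its own peak list, and a gene absent from a list is one whose region the caller did not report there, not one without tags. The macrophage gene Spi1, for example, was listed with 503 tags after LPS and not at all after PBS. The identity of the cells was read from H3K4me3 at marker genes. Of 14 macrophage markers 10 carried a gene-end peak in both lists (60.1% of all genes), while Cd163, Marco and Msr1 had none. The 14 summed to 124.1 and 135.3 tags per 1000000 filtered tags (RPM) after LPS and PBS. The sum after LPS includes Spi1, which adds nothing after PBS. Cebpb alone gave 942 of 3320 tags after LPS and 1414 of 4015 after PBS. The marker lists hold 9 to 14 genes, and sums were not scaled for this. Of 12 neuron markers 6 were in both lists, and Stmn2, Snap25 and Dcx had no peak. The 12 summed to 21.9 and 28.2 RPM. Mesothelium and fibroblast markers summed to 22.0 and 31.4 RPM. Neutrophil markers summed to 11.9 and 9.06, T cell markers to 24.4 and 28.3, and B cell markers to 13.8 and 19.6 RPM. The part of such cells in the values below was not tested.

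H3K4me3 was read within 1 kb of the gene end, that is, of whichever end of the gene held more tags, as the gene table gives no strand. A peak was present there in both lists for 53 of the 96 genes, against 60.1% of all protein-coding genes. No gene was listed after LPS only (1.26% of all genes), 5 were listed after PBS only (3.14% of all genes), and 38 were in neither list (35.5% of all genes). Most neuronal channel and receptor genes thus carried a listed H3K4me3 peak at an end of the gene in these macrophages, at a share of genes near that of the genome.

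The level of the mark was lower than at the usual promoter. Among the 53 genes, the tags at the gene end ran from 19 to 491 after LPS, with a median of 111, and from 33 to 621 after PBS, with a median of 152. Over all 13151 genes listed in both libraries the medians were 200 and 289 tags. The peaks were also narrower, with a median covered length of 1.3 kb after LPS and 1.41 kb after PBS, against 1.61 and 1.83 kb over all genes. Per covered kb the median density was 83.1 and 96.1 tags, against 119.6 and 152.6, so the lower level was not only a matter of length. Of the 53 genes 19 (35.8%) had fewer than 75 tags per kb, the lowest of 4 density classes, which held 9.57% of all genes.

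**Figure D1:**
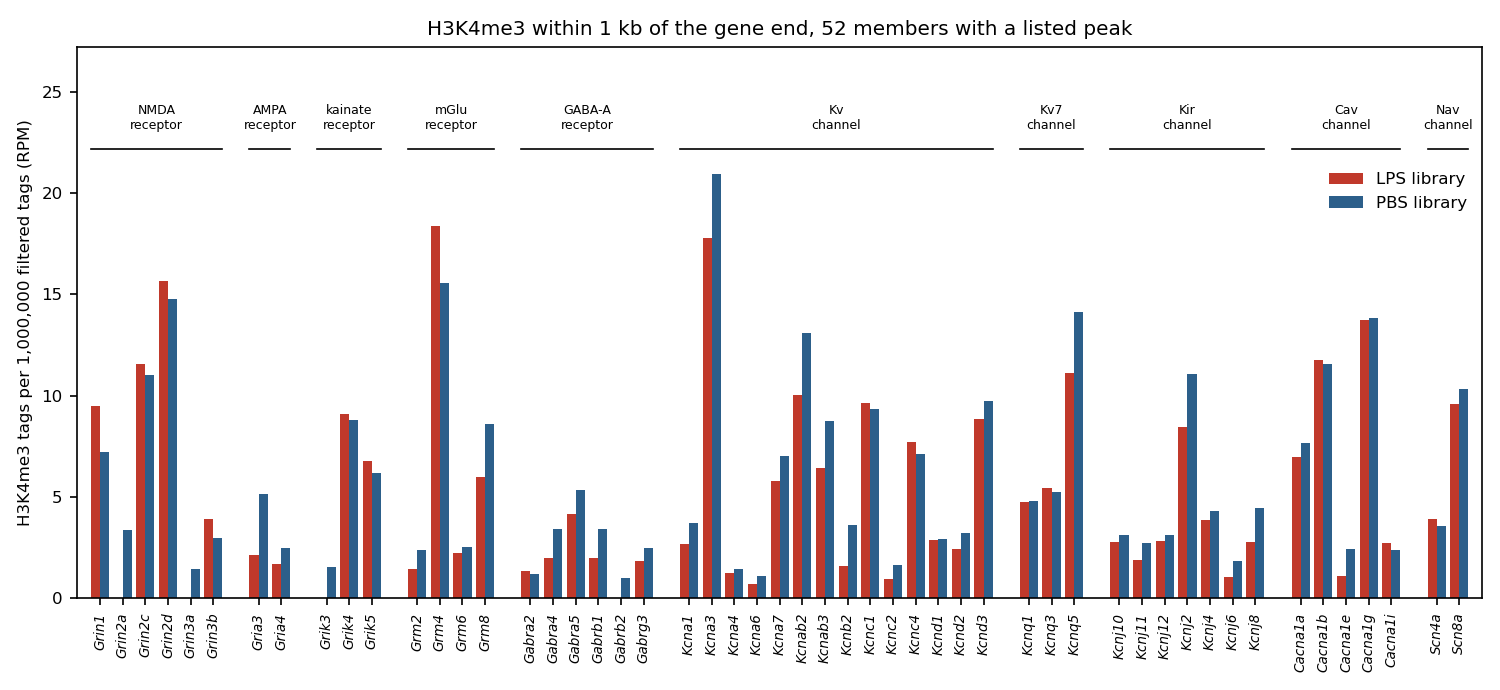
H3K4me3 RPM within 1 kb of the gene end (vertical axis) for 52 genes with a peak in at least 1 list, grouped by family, with a red bar for the LPS library and a blue bar for the PBS library (1 library each, no error bars). Kcna3 is highest in PBS and Grm4 in LPS, and Grin2a, Grin3a, Grik3 and Gabrb2 have a bar in PBS only.

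Genes with the mark had more CpG in their promoters than genes without it, though the ranges overlapped. RefSeq promoter windows (GRCm38.p6, 250 bases before to 50 after the annotated start) were at hand for 67 of the 96 genes. A peak lay within 1 kb of the annotated start in both lists for 39 of these 67 genes (62.2% of all promoters of the table), after LPS only for 0 (0.983% of all), after PBS only for 4 (2.56% of all) and in neither list for 24 (34.3% of all). The median number of CpG in the 300 bases was 22 in the 39 genes with the mark in both lists, 18.5 in the 4 listed after PBS only and 4.5 in the 24 without it, against 21, 9 and 2 over all genes of the table. Of the 24 channel and receptor genes with 20 or more CpG, 22 (91.7%) were marked in both lists (97.2% of all such genes). With 10 to 19 CpG it was 8 of 15 (53.3%), against 85.2% of all such genes. With 3 to 9 CpG it was 9 of 23 (39.1%), against 31.7%, and with 0 to 2 CpG it was 0 of 5, against 5.32%. The plot of CpG classes shows that the distance to all genes was widest in the class of 10 to 19 CpG, which held 15 of the 67 genes.

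**Figure D2:**
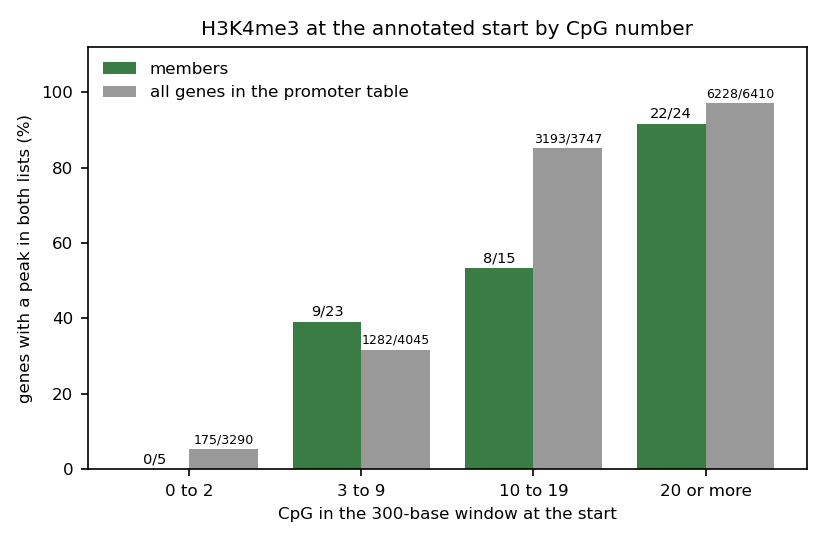
Share of genes with an H3K4me3 peak within 1 kb of the annotated start in both lists (vertical axis, percent) by the number of CpG in the 300-base promoter window (horizontal axis), for the channel and receptor genes (green) and for all genes of the promoter table (grey), with the counts above the bars. The share rises with CpG number in both, and the green bar is at 53.3% where the grey one is at 85.2% in the class of 10 to 19 CpG.

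The range is shown by 5 promoters, printed 5′ to 3′ on the gene's own strand with every CpG in capitals: Kcna3, with the most tags at its start (chr3:107035912-107036211, plus strand, 37 CpG), Grin3b, with the highest LPS to PBS ratio (chr10:79970474-79970773, plus strand, 3 CpG), Kcnab2, with the lowest ratio (chr4:152448806-152449105, minus strand, 3 CpG), and 2 genes with no H3K4me3 peak, Kcna10 with the fewest CpG (chr3:107182893-107183192, plus strand, 0 CpG) and Scn10a, which with Grm3 has the most among the genes without any peak over the gene (chr9:119718983-119719282, minus strand, 11 CpG).
Kcna3: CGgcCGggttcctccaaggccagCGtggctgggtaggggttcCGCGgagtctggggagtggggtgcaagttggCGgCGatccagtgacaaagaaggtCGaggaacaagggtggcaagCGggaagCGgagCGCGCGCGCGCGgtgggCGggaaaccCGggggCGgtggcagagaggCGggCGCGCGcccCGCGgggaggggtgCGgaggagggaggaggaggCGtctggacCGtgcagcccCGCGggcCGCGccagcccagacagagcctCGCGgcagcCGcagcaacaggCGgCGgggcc
Grin3b: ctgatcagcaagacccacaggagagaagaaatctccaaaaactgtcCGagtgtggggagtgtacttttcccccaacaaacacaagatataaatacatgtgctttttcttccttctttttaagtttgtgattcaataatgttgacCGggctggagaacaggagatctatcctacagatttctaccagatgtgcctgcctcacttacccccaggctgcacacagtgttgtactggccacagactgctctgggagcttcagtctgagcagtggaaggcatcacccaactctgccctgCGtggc
Kcnab2: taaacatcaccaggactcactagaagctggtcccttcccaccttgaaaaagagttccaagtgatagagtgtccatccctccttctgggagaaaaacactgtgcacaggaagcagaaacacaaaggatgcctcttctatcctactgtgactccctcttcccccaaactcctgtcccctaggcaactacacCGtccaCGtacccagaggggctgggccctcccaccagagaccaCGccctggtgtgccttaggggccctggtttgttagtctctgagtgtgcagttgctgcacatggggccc
Kcna10: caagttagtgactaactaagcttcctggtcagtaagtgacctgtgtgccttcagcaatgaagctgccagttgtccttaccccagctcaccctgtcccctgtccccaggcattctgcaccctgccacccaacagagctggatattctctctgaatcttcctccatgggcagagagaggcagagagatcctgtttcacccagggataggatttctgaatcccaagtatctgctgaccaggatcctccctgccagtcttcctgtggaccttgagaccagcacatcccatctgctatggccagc
Scn10a: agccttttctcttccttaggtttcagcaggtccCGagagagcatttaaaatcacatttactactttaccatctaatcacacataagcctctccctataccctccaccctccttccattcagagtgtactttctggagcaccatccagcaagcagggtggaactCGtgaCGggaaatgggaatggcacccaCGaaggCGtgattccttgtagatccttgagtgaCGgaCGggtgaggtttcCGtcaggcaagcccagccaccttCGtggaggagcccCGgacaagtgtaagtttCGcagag
Kcna3, the voltage-gated channel of T cells and macrophages, and Kcna10, a related channel gene, lie on the same chromosome. The Kcna3 window is dense in CpG, with 475 tags after LPS and 621 after PBS at the start, while the Kcna10 window has none and no peak. CpG number alone did not order the genes, since Grin3b (104 and 88 tags) and Kcnab2 (246 and 547 tags) were marked at windows with 3 CpG and Scn10a, a sodium channel of sensory neurons, was not marked with 11.

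Some short motifs were counted in the same windows on both strands. TTCAGCACC, a left part of the site bound by the neuronal gene repressor REST, was in 1 of the 67 windows, that of Grm2, and in 0.412% of all windows. GGACAGCG, from the right part of that site, was in those of Gria2 and Kcnj4 and in 1.65% of all windows. GGGCGG was in 46.3% of the 67 windows and 46.9% of all windows, CCAAT in 31.3% and 39.0%, and TATAAA in 10.4% and 13.2%. None of these motifs holds another. The counts describe letters in a 300-base window and say nothing of binding.

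At the annotated start the peaks of the 2 libraries had like positions. After LPS, 43 peaks lay within 1 kb of the start of 39 genes, with the median summit 165 bases into the gene and 34 peaks covering the start itself. After PBS, 44 peaks lay at 43 genes, with the median summit at 99.5 bases and 41 covering the start. Gria2 and Scn2a, which encode an AMPA receptor subunit and a sodium channel of axons, had a peak at the annotated start after PBS only, of 29 and 21 tags. That of Gria2 lay 1.04 kb from the nearer outer end of the gene, just beyond the 1 kb read there, and that of Scn2a 48.0 kb from it.

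**Figure D3:**
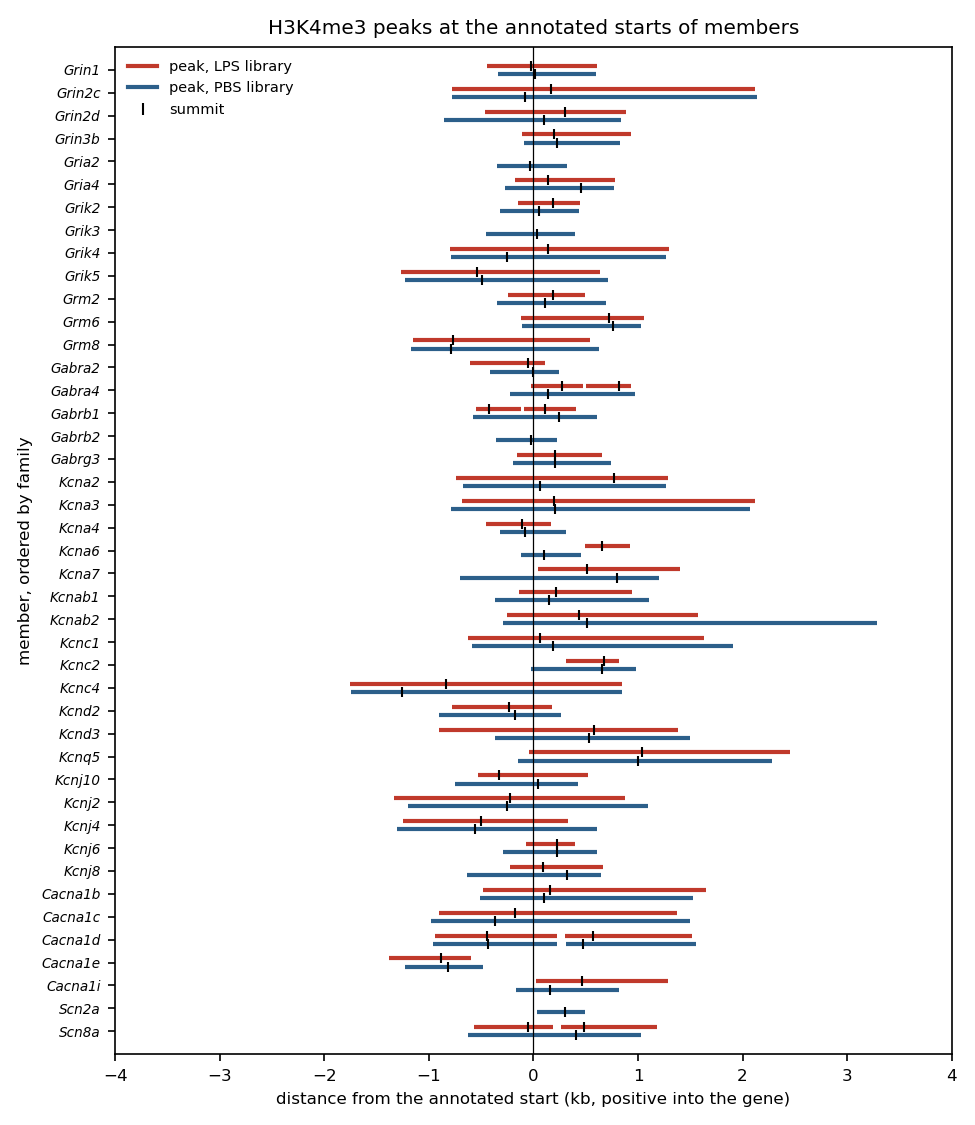
H3K4me3 peaks within 1 kb of the annotated start of the genes in the promoter table (rows, ordered by family), drawn as distance from the start in kb (horizontal axis, positive into the gene), red for the LPS library and blue for the PBS library, with a black tick at each summit. Most bars of both colours cross the start (34 of 43 in LPS, 41 of 44 in PBS), and Gria2, Grik3, Gabrb2 and Scn2a have a blue bar only.

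The treatments were compared by the log2 ratio of RPM, LPS over PBS. Intervals given with a ratio are exact 95% binomial intervals of the tag split and cover counting error only, not variation between cultures. For a sum over several peaks they also leave out whether each peak was listed, as an unlisted peak adds no tags. A lower ratio can come from less of the mark per cell or from fewer cells that carry it, and these cannot be told apart. Over all promoters the median ratio was -0.36, and scaling by the tags in peaks instead would add 0.34 to every ratio and bring that median to -0.02. Ratios are therefore read against the median of all promoters.

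The 53 genes had a median ratio of -0.16, with quartiles of -0.48 and 0.05, which lay 0.20 higher than that of all promoters. The median of the 53 was 0.18 when scaled by the tags in peaks, so its sign depends on the scaling while the distance to all promoters does not. Per covered kb the distance was 0.05 (-0.15 against -0.21), smaller than in tags. Peaks were longer after LPS in 24 of the 53 genes, against 28.0% of all promoters. At the annotated starts the distance was 0.10 in tags and 0.09 per covered kb, over 39 genes. Of the 53 genes 34 had a ratio above the median of all promoters (50% of all) and 16 had one above 0 (9.14% of all).

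By the strength of the mark, the stronger genes lay above the promoters of like strength and the weaker ones on both sides of them. Genes with 400 to 800 tags over both libraries had a median ratio of -0.08 over 17 genes, against -0.37 over all promoters of that class. Those with 200 to 400 tags had -0.15 over 11 genes, against -0.42. Those with 100 to 200 tags had -0.44 over 17 genes, against -0.40, and those under 100 tags had -0.65 over 5 genes, against -0.20. The 3 genes with 800 tags or more were Kcna3, Grm4 and Grin2d. Thus 13 of 17 genes in the class of 400 to 800 tags were above the class median of all promoters, and 8 of 17 in the class of 100 to 200 tags.

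**Figure D4:**
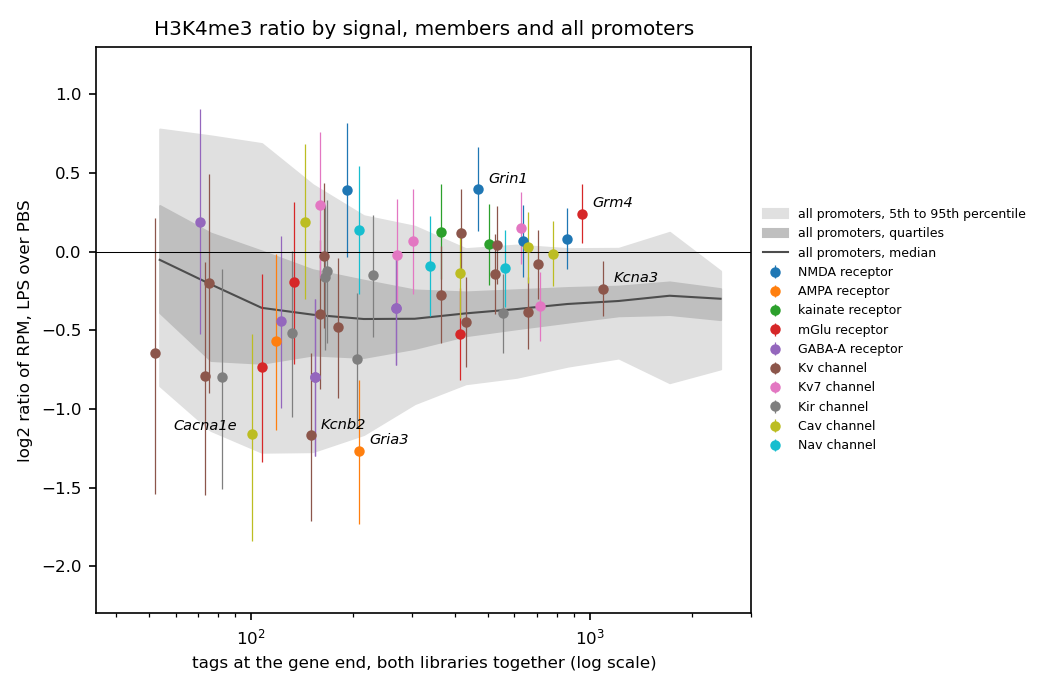
Log2 ratio of H3K4me3 RPM, LPS over PBS (vertical axis), against the tags at the gene end in both libraries together (horizontal axis, log scale) for the 53 genes listed in both libraries, coloured by family, with 95% binomial intervals as bars. The line and grey bands give the median, the quartiles and the 5th to 95th percentiles of all promoters, and the points lie mostly above the line over 200 tags and on both sides of it under 200.

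A gene was called different at 2-fold or more with at least 100 tags in the 2 libraries together, which 48 of the 96 genes reached. None of the 48 was 2-fold higher after LPS (0.37% of all promoters tested) and 3 were 2-fold higher after PBS (3.65% of all promoters tested), a share near that of the genome. They were Gria3, which encodes an AMPA receptor subunit, Kcnb2, a delayed rectifier potassium channel, and Cacna1e, the R-type calcium channel. Gria3 (chrX:41400819-41678601) had 57 tags after LPS and 152 after PBS, a ratio of -1.26 (-1.73 to -0.82), Kcnb2 (chr1:15286925-15723751) had 43 and 107, a ratio of -1.17 (-1.71 to -0.64), and Cacna1e (chr1:154390806-154884785) had 29 and 72, a ratio of -1.16 (-1.84 to -0.52). Each of the 3 had fewer tags in both libraries than the median of all genes, 200 and 289. Relative to the median of all promoters no gene was 2-fold higher after PBS (1.19% of all) or after LPS (0.882% of all), and none was 2-fold different per covered kb, where the ratios were -0.10 for Gria3, -0.78 for Kcnb2 and -0.32 for Cacna1e. The Gria3 peak covered 0.83 kb after LPS and 1.87 kb after PBS.

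The NMDA receptor genes are described first among the glutamate receptor genes. Of 7 genes, 4 were listed in both libraries, 2 after PBS only and Grin2b in neither, and all 4 ratios at the gene end were above the median of all promoters. Grin1, which encodes the subunit that every NMDA receptor holds, had 254 and 214 tags after LPS and PBS, a ratio of 0.40 (0.13 to 0.67), the highest of the 53 genes. That region is at the 3′ end of the gene (chr2:25291177-25319187), where it also meets the ends of Lrrc26 and Tmem210, and at the annotated start of Grin1 there were 67 and 72 tags, a ratio of 0.05 (-0.46 to 0.55). Grin2d, a subunit of early development and interneurons, likewise had 418 and 438 tags at its 3′ end, shared with Grwd1, a ratio of 0.08 (-0.11 to 0.28), and 184 and 303 at its start, a ratio of -0.57 (-0.84 to -0.30), below that median. For both genes the value at the gene end is thus not that of their own start. Grin2c, the subunit of cerebellar granule cells, had 309 and 327 tags at a start shared with Fdxr, a ratio of 0.07 (-0.16 to 0.30). Grin3b, the subunit of motor neurons, had 104 and 88 tags at its start, a ratio of 0.39 (-0.03 to 0.82), the highest of the 39 annotated starts marked in both lists. Grin2a, the main partner subunit of the adult forebrain, was not listed after LPS and had 100 tags after PBS. Grin3a was likewise not listed after LPS and had 43 tags after PBS. Their PBS peaks were weak, at 53.0 and 52.6 tags per kb.

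The AMPA receptor genes, which carry fast excitatory transmission, had low levels. Gria3 and Gria4 were listed in both libraries and Gria1 and Gria2 had no gene-end peak. Gria4 had 45 and 74 tags, a ratio of -0.57 (-1.14 to -0.01), and with Gria3 both were below the median of all promoters. In the kainate receptor genes Grik4 had 243 and 261 tags (0.05, -0.21 to 0.30), with the peak at its start. Grik5 had 181 and 184 tags at its 3′ end (0.13, -0.18 to 0.43) and 210 and 208 at its start (0.16, -0.12 to 0.45). Grik3 was listed after PBS only, with 46 tags, and Grik1 and Grik2 had no gene-end peak. Grik2 was marked in both lists at its annotated start, inside the gene, with 31 and 45 tags (-0.39, -1.10 to 0.30).

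Of the 8 metabotropic glutamate receptor genes, which encode receptors coupled to G proteins, 4 were listed in both libraries and 4 in neither. Grm4, a presynaptic receptor, had 491 tags after LPS and 461 after PBS, a ratio of 0.24 (0.05 to 0.43), the most tags of all receptor genes. The peaks at Grm4 (chr17:27422387-27513826) covered 3.46 kb after LPS and 2.84 kb after PBS, and per covered kb the ratio was -0.04. Grm2, another presynaptic receptor, had 38 and 70 tags (-0.73, -1.34 to -0.14), and Grm8 had 160 and 255 (-0.52, -0.82 to -0.23). Grm5, a postsynaptic receptor, had no gene-end peak but an inner region 4.03 kb from the nearer end with 127 and 85 tags, a ratio of 0.73 (0.32 to 1.14). Against the all-promoter median of -0.36, the intervals of Grm5 and Grm4 lay above it and those of Grm2 and Grm8 covered it.

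The GABA-A receptor genes had low levels throughout, with a highest value of 111 tags after LPS and 158 after PBS. Of 12 genes, 6 were listed in both libraries, Gabrb2 after PBS only (29 tags) and 5 in neither, and 3 of the 6 had a ratio above the median of all promoters. Some of these genes share a peak with a neighbour, and their values are not independent. Gabra4 and Gabrb1 start next to each other on chromosome 5 and shared 53 and 102 tags (-0.79, -1.30 to -0.30). Gabra5 had 111 and 158 tags (-0.36, -0.72 to 0.00) at an outer end, in a peak shared with a neighbour. Within 1 kb of its annotated start in the promoter table it had no peak in either list. Gabrg3 had 49 and 74 tags (-0.44, -1.0 to 0.10).

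The voltage-gated potassium channels of the Kcna to Kcnd groups had the most marked genes by number, 15 of 20 in both libraries, with a median ratio 0.09 above that of all promoters. Kcna3 (chr3:107036162-107038129) had 475 tags after LPS and 621 after PBS, a ratio of -0.24 (-0.41 to -0.06), over 2.80 and 2.86 kb. It was the strongest of the 53 genes in tags over both libraries and the densest, with 169.4 and 217.2 tags per kb. Kcnc4, a fast channel, had 206 and 211 tags (0.12, -0.17 to 0.40). At the weak end, Kcnc2 had 25 and 48 tags (-0.79, -1.55 to -0.06) and Kcna6 had 19 and 33. Kcna7, a channel of muscle, had 155 and 208 tags, with 1.36 kb covered after LPS and 1.91 kb after PBS, and its ratio was -0.27 in tags and 0.21 per covered kb.

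Of the 3 beta subunit genes Kcnab2 and Kcnab3 were marked at a gene end, both at ends shared with other genes. Kcnab2 had 268 and 389 tags (-0.39, -0.62 to -0.16) at the end shared with Nphp4, and Kcnab3 had 172 and 260 (-0.45, -0.73 to -0.16) at that shared with Trappc1. The annotated start of Kcnab2 whose sequence is shown had 246 and 547 tags, a ratio of -1.0 (-1.23 to -0.78), the lowest of the 39 starts. After LPS the peak there was split, and over the whole region the tags were 370 and 547, a ratio of -0.41 (-0.61 to -0.22). The lowest start thus owed its rank to where the caller divided the region. Kcnab1 had no gene-end peak and 71 and 129 tags at an inner annotated start (-0.71, -1.15 to -0.28).

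The Kcnq genes encode the Kv7 channels behind the M-current and the slow cardiac potassium current. All 5 were listed in both libraries, with ratios above the median of all promoters, and 3 are described here. Kcnq1, of heart and epithelia, had 127 and 143 tags (-0.02, -0.38 to 0.33), Kcnq3, a neuronal subunit, had 146 and 155 (0.06, -0.27 to 0.40), and Kcnq5 had 297 and 419 (-0.35, -0.57 to -0.13). The intervals of these 3 overlapped.

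The inward rectifiers, which hold the resting potential, were marked in 7 of 15 genes, all listed in both libraries, and 8 had no gene-end peak. Kcnj2, the inward rectifier of macrophages and muscle (chr11:111066164-111076825), had 226 and 329 tags (-0.39, -0.64 to -0.14), close to the median of all promoters. Kcnj8, a pore of vascular channels gated by ATP, had 74 and 132 (-0.68, -1.12 to -0.26), Kcnj12 had 76 and 92 (-0.13, -0.58 to 0.33) and Kcnj6, gated by G proteins, had 28 and 54 (-0.80, -1.51 to -0.11). The tags of Kcnj12 lay at an outer end, and its annotated start in the promoter table had no peak within 1 kb in either list. No inward rectifier had a ratio above 0 with tags scaled by library size, whereas scaled by the tags in peaks Kcnj12, the highest of the 7, had 0.22.

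Calcium channel pore genes were marked at the gene end in 5 of 10, and 4 of the 5 ratios were above the median of all promoters. Cacna1g, a T-type channel, had 367 and 411 tags (-0.01, -0.22 to 0.19), and Cacna1b, the N-type channel of presynaptic terminals, had 315 and 343 (0.03, -0.20 to 0.25). Cacna1a, the P/Q-type channel, had 186 and 227 (-0.14, -0.42 to 0.15), and Cacna1i, another T-type channel, had 73 and 71 (0.19, -0.30 to 0.68). The L-type genes Cacna1c and Cacna1d had no peak at an outer end but were marked at annotated starts inside the gene table's span. Cacna1c had 287 and 361 tags there (-0.18, -0.41 to 0.05) and Cacna1d 262 and 417 (-0.52, -0.75 to -0.29). For Cacna1e the annotated start in the promoter table, also inside the span, had 36 and 50 tags and a ratio of -0.32 (-0.98 to 0.32). With 86 tags in both libraries together that start was under the minimum of 100 and could not be called. Its interval overlapped that of the outer end, so whether the 2 sites differ cannot be told.

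Sodium channel pore genes were the least marked family by share, with 3 of 10 listed at a gene end and 7 in neither list. The 3 had ratios above the median of all promoters. Scn8a, of axon initial segments, had 256 and 306 tags at its 3′ end (-0.11, -0.35 to 0.14) and 167 and 189 at its start (-0.03, -0.34 to 0.28). Scn4a, of skeletal muscle, had 104 and 105 (0.14, -0.27 to 0.54) at an outer end. It had no peak in either list within 1 kb of its annotated start in the promoter table. The 7 without a peak at an outer gene end include Scn1a and Scn2a of central neurons and Scn9a, Scn10a and Scn11a of sensory neurons. Of these, Scn1a, Scn2a and Scn11a held a weak inner peak after PBS only, of 24, 21 and 31 tags, that of Scn2a at its annotated start.

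H3K4me3 was also found inside the genes. Beyond 1 kb of the gene ends, 116 inner regions lay in 48 of the 96 genes, 57 of them in both lists, 29 after LPS only and 30 after PBS only (45.5%, 20.7% and 33.7% of the inner regions of all genes, against 49.1%, 25% and 25.9% here). The 57 had a median ratio of -0.18. Of the 38 genes without a gene-end peak 18 held an inner peak, which left 20 genes with no H3K4me3 peak over the gene in either list, among them Grin2b, which encodes a major NMDA receptor subunit of the forebrain. Inner regions listed after LPS only were small, with a median of 24 tags, and 11 of 29 (37.9%) met an H3K9me3 peak. Those listed after PBS only had a median of 32.5 tags, and 0 of 30 met an H3K9me3 peak. Over all H3K4me3 regions of the genome these shares were 22.5% of those in the LPS list only and 7.44% of those in the PBS list only.

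H3K9me3 was read over the gene bodies. A peak lay over 45 of the 96 genes after LPS (26.6% of all genes) and over 49 after PBS (24.5% of all genes), with 37 in both lists, 8 after LPS only and 12 after PBS only (16.1%, 10.5% and 8.37% of all genes). These genes are long, with a median body of 92.8 kb against 17.2 kb, and within length classes the share was near that of all genes in the longest, below it in the middle class and above it in the shortest. Of the 31 genes over 200 kb, 22 had a peak after LPS and 26 after PBS, against 74.8% and 78.3% of all genes of that length. Of the 32 genes of 50 to 200 kb, 13 had one after either treatment, against 50.6% and 49.8%. Of the 33 under 50 kb it was 10 after either treatment, against 18.2% and 15.4%. Per Mb of gene body there were 4.81 peaks after LPS and 5.04 after PBS, against 8.54 and 8.16 over all genes, most of which are shorter. Within length classes the direction differed. Under 50 kb the channel and receptor genes had 18.4 and 16.9 peaks per Mb against 14.7 and 12.5, from 50 to 200 kb 5.13 and 7.98 against 8.8 and 8.47, and over 200 kb 4.06 and 3.68 against 4.65 and 5.28.

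The H3K9me3 peaks over these genes held 2200 tags after LPS and 1790 after PBS, a log2 ratio of RPM of 0.25 (0.16 to 0.34), against 0.14 over all genes. They covered 29.7 and 24.9 kb, and per covered kb the ratio was -0.003, so the difference in sums followed the length called. The distance to all genes differed by gene length. Under 50 kb the ratio of sums was 0.71 against 0.28 over all genes of that length. From 50 to 200 kb it was 0.03 against 0.15, and over 200 kb 0.20 against -0.15. A region in 1 list adds tags to 1 side of these sums only, which the interval does not cover. The number of peaks was 84 and 88, in the other direction. Of 137 separate regions, 33 were in both lists, 51 after LPS only and 53 after PBS only, or 24.1%, 37.2% and 38.7%. Over the bodies of all genes the shares were 23.3%, 39.8% and 36.9%, so that most regions were seen in 1 library here as in the genome. Peaks that met the other list had medians of 25 and 21 tags, and those that did not had 17 and 15, close to the smallest peaks the caller reported (12 and 11 tags).

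**Figure D5:**
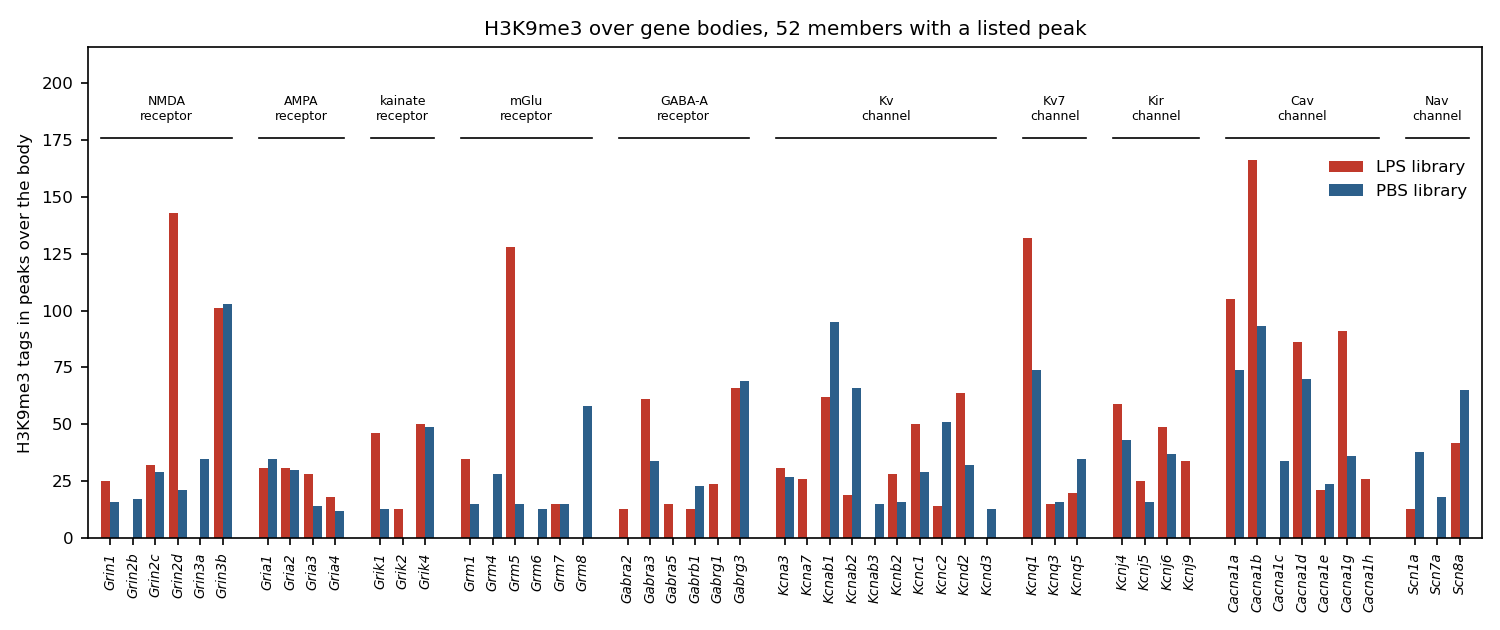
H3K9me3 tags in peaks over the gene body (vertical axis) for 52 genes with a peak in at least 1 list, grouped by family, red for the LPS library and blue for the PBS library (1 library each, no error bars). Cacna1b, Grin2d, Kcnq1 and Grm5 have the tallest red bars, with 166, 143, 132 and 128 tags, and Grin3b, Kcnab1 and Cacna1b the tallest blue ones, with 103, 95 and 93.

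The genes with the most H3K9me3 peaks were long channel and receptor genes. Cacna1a had 5 peaks after LPS and 4 after PBS, with 105 and 74 tags, Cacna1d had 6 and 3, with 86 and 70 tags, and Gabrg3 had 4 and 4, with 66 and 69 tags. Kcnq1 had 4 and 3 peaks with 132 and 74 tags (0.79, 0.37 to 1.22), Kcnab1 had 3 and 4 with 62 and 95 (-0.66, -1.15 to -0.18), and Scn8a had 2 and 4 with 42 and 65 (-0.67, -1.27 to -0.09). Grm5 had 5 peaks after LPS and 1 after PBS, with 128 and 15 tags (3.05, 2.27 to 3.93), the highest ratio of these 7 genes. That ratio counts the peaks listed after LPS only, of 13 to 17 tags each, as 0 after PBS. The Grm5 region listed in both libraries had 65 and 15 tags (2.07, 1.25 to 2.99). Both directions therefore occur among genes of this kind. Grm3, Gabrb2, Grik3 and Grin2a, all over 200 kb, had no H3K9me3 peak in either list. Of these 4, 3 are among the 5 genes whose H3K4me3 was listed after PBS only. The 4 were picked for few H3K9me3 peaks, and 39 of the 96 genes had none (65% of all genes). A link between the 2 traits was not tested.

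The 6 regions with the most H3K9me3 tags among those on H3K4me3 lay in Cacna1b, Cacna1g, Grin2d, Kcnj4 and Grm5. An inner region of Cacna1b (chr2:24634187-24634914) had 93 H3K9me3 tags after LPS and 54 after PBS, a ratio of 0.74 (0.24 to 1.25), on a weak H3K4me3 region of 34 and 35 tags. At the outer end of Cacna1b (chr2:24762252-24763289) there were 73 and 25 (1.5, 0.83 to 2.22), and at that of Cacna1g (chr11:94473362-94474335) 75 and 36 (1.01, 0.42 to 1.63). In Grin2d a region 0.72 kb from the 3′ end (chr7:45832598-45833643) had 85 and 21 H3K9me3 tags, a ratio of 1.97 (1.27 to 2.74), and 289 and 263 H3K4me3 tags. In Kcnj4 (chr15:79505180-79505960) there were 59 and 43 H3K9me3 tags, and the interval of the ratio covered 0 (0.41, -0.18 to 1.01). In Grm5 (chr7:88130015-88130827) there were 65 and 15 H3K9me3 tags (2.07, 1.25 to 2.99) in the inner H3K4me3 region of 127 and 85 tags. These 6 regions were covered over more bases after LPS than after PBS, for Grin2d 1046 against 257. They were picked for their tags. The 33 regions in both lists had a median ratio of 0.16, with quartiles of -0.04 and 0.60, against 0.03 over the genome. A region on H3K4me3 in Cacna1d had 13 and 23 H3K9me3 tags. Others on H3K4me3 were listed once, as in Grik4 (38 tags, LPS only) and Cacna1c (21 tags, PBS only). The largest region of all, at the 3′ end of Grin3b (chr10:79976656-79978041), had 101 and 103 H3K9me3 tags and no H3K4me3 peak, and did not differ beyond counting error (-0.07, -0.48 to 0.34).

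Of the genes with H3K4me3 at an end, 30 of 53 after LPS and 35 of 58 after PBS had an H3K9me3 peak somewhere over the body, against 34.9% and 30.2% of all genes with H3K4me3, and of the others 15 of 43 and 14 of 38, against 13.5% and 14.5%. These shares were not matched for length, and the 96 genes have a median body of 92.8 kb against 17.2 kb over all genes. Both marks were listed within 1 kb of the same gene end in 12 of 53 genes after LPS (20.8% of all H3K4me3 ends) and in 10 of 58 after PBS (15.5% of all). Kcna3, Kcnq1, Kcnc2, Cacna1b and Cacna1g had both marks after either treatment. The H3K9me3 tags were 31 and 27 at Kcna3, 36 and 22 at Kcnq1 and 14 and 13 at Kcnc2. After LPS only this held among others for Grik4 (38 tags), Kcna7 (26), Kcnj6 (21), Grin2d (85) and Scn8a (46), and after PBS only for Gabra5 (30) and Kcnab3 (15), among others. Most of these are small peaks. Those at Gabra5 after PBS lay just beyond its outer end, outside the gene body. H3K9me3 peaks over the 96 genes met an H3K4me3 peak in 45.2% of cases after LPS and 26.1% after PBS, against 50.8% and 39.5% over all genes.

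The other genes of excitability and synapses were counted in the same way, from lists of related subunits and partners. Over all protein-coding genes 60.1% were marked at the gene end in both lists. Of 32 auxiliary channel subunits, such as the calcium channel beta and sodium channel beta subunits, 17 were marked at the gene end in both lists, with a median ratio 0.19 above that of all promoters (0.05 per covered kb). Of 40 other potassium and pacemaker channels 24 were marked, with 0.25 (0.07 per covered kb). Of 31 postsynaptic scaffold and release genes 25 were marked, with 0.15 (0.06 per covered kb), and of 16 nicotinic receptor subunits 6, with 0.11 (0.03 per covered kb). Of 12 other GABA-A and glycine receptor subunits 3 were marked, with a median ratio 0.16 above that of all promoters in tags and -0.17 from it per covered kb, so the sign of that distance turned. The members called at 2-fold in these 5 lists were Kcnn1, a calcium-activated potassium channel, with 439 and 186 tags (1.39, 1.14 to 1.64, 0.25 per covered kb), and Cacng6, with 87 and 37 tags (1.38, 0.81 to 1.98, 0.16 per covered kb), both higher after LPS. Kcnn1 was 1 of 21 genes with 100 tags in its list and Cacng6 1 of 17, against 0.37% of all promoters tested. No gene of these 5 lists was called higher after PBS (3.65% of all promoters tested). Of 20 channels of immune cells 17 were marked, with a median ratio 0.01 below that of all promoters. The member called in that list was P2rx7, the ATP-gated channel of macrophages, which had 84 and 203 tags (-1.12, -1.51 to -0.75, or -0.82 per covered kb). It was 1 of 17 genes with 100 tags there, against 3.65% of all promoters tested that were called higher after PBS.

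The 13 genes of the REST complex, which silences neuronal genes outside the nervous system, were all marked in both lists, against 60.1% of all genes. Rest itself had 500 and 662 tags (-0.25, -0.43 to -0.09), and its corepressors Rcor1 and Sin3a had 570 and 777 (-0.30, -0.46 to -0.14) and 345 and 385 (-0.01, -0.22 to 0.21). The median ratio of the 13 genes was 0.07 above that of all promoters and 0.02 below it per covered kb. Their median of 465 tags after LPS and 567 after PBS stands beside 111 and 152 for the channel and receptor genes.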

How the data were processed

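The 4 deposited tables hold MACS peaks, 1 library each. Per the submitters' processing notes, CASAVA 1.4, Bowtie 0.12.8, MACS 1.4.2 and DiffBind were used with mm10; no DiffBind values were used here. Per the file headers, peaks were called without a control at a p-value threshold of 1e-05, with at most 1 tag per position. Per the file headers, each peak has a tag count, a score that is minus 10 times the log10 p-value, and an enrichment fold (a ratio) over the local background, which the authors' caller computed and which was not compared between libraries here.

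Gene spans and promoter windows were RefSeq GRCm38.p6, the assembly named mm10. For each gene the end with more tags within 1 kb was used: the annotated start side in 35 genes, the 3′ end in 4 (Grin1, Grin2d, Grik5, Scn8a) and an end of unknown strand in 19 of the 58 genes with a peak. Tags of all peaks touching the window were summed, scaled per 1000000 filtered tags (RPM), and compared as log2 ratios with exact Clopper-Pearson 95% intervals. Overlaps (1 bp or more) were checked with bedtools 2.31.1, and the functions were tested on simulated peak lists. Python 3.11.15, pandas 2.3.3 and scipy 1.17.1 were used. Named genes were, per family, those with the most tags and the highest and lowest ratio at 100 tags, all called or listed after 1 treatment only, channels of immune cells, and for H3K9me3 the 8 genes with the most peaks, those with both marks at an end and 4 long genes with the fewest peaks. Kcna6, Grm8, Kcnab2, Cacna1c and a few others were named after their values were seen. Some genes that this rule names are not reported here by name; they remain in the counts and medians. The genes and lists were chosen with earlier results of these data known. Eosinophil and mast cell markers summed to 14.7 and 14.9 H3K4me3 RPM after LPS and PBS.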

Additional observations from a re-analysis of the deposited data

How the results depend on the processing

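No paired analysis was possible because each mark and treatment had 1 library. The 5 genes listed after PBS only became 9 with peaks of score 100 or more, and the 38 genes without a gene-end peak became 24 of the 67 with an annotated start. The median ratio of -0.16 became 0.18 when scaled by tags in peaks. The 3 genes 2-fold higher after PBS became 1 at annotated starts, 0 per covered kb, 0 when scaled by tags in peaks, 7 at 1.5-fold and 1 with at least 200 tags, the last an alternative chosen after seeing the data. The 1 at annotated starts was Kcnab2, which is not among the 3. With H3K9me3 peaks of score 100 or more, 11 and 10 genes had a peak over the body after LPS and PBS in place of 45 and 49, and the log2 ratio of summed tags became 1.08 in place of 0.25, while by number of peaks it was -0.067. At that score the genes with H3K4me3 at the end and H3K9me3 over the body became 9 and 6 in place of 30 and 35, and those with both marks at the end became 5 and 2 in place of 12 and 10. The stricter scores leave fewer peaks by construction, and the cause of the other changes was not tested. Of 195 values of single named genes under these alternatives 160 stayed within their counting interval, 35 moved outside it, and none of the 3 called genes changed sign. Scaling by tags in peaks adds 0.34 to every ratio and could not change the sign of these 3. Per covered kb Gria3, at -0.10, lay above the median of all promoters, -0.21, while Kcnb2 and Cacna1e lay below it. Leaving out a replicate was not possible with 1 library per group. Depth was not varied, and a median H3K9me3 peak had 17 and 16 tags after LPS and PBS, which limits the precision of its ratio.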
